A study of Mus musculus with 9 samples.

Results

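The genes of the complement, coagulation and fibrinolysis cascades were followed in RNA sequencing libraries of whole mouse liver. The members were a named list of 48 symbols for the components, proteases, cofactors and regulators of these cascades, without the serpin inhibitors. The count tables hold 24421 genes, among them 47 of the 48 symbols. The remaining symbol, C1s, has no entry of its own beside C1s1. A filter on low counts left 14104 genes for testing, among them 46 members. Factor D (Cfd) did not pass it. The members were grouped by the arm of the cascade in which they act.

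The 4 OGT-deficient libraries came from C57BL/6J mice in which O-GlcNAc transferase (OGT) had been deleted, and the 5 WT libraries came from their wild-type control littermates on the same strain. OGT is the enzyme that attaches N-acetylglucosamine to serines and threonines of nuclear and cytoplasmic proteins. All mice were 5 weeks old and had been without food for 6 h. The sources used here do not give how or in which cells Ogt was deleted, nor which mice were of which sex or litter. The groups are described with as many mice as there are libraries, and each library is treated here as 1 mouse.

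Complement is a set of plasma proteins that mark and lyse microbes. Its classical and lectin pathways start with recognition proteins that activate proteases, the alternative pathway amplifies, and all converge on C3 and then on the pore-forming terminal components. Coagulation is a chain of proteases that ends with thrombin cutting fibrinogen into fibrin, and plasmin dissolves that fibrin again. Hepatocytes make most of these proteins and secrete them into blood, while endothelium, macrophages and other cells make the surface receptors and the plasminogen activators.

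Library totals were 36323832 to 45102080 counts in OGT-deficient liver and 32337861 to 54130901 counts in WT liver. Ogt itself measured 20.6, 14.3, 17.2 and 15.6 CPM (counts scaled to library size) in OGT-deficient 1 to 4, against 51.1, 54.2, 57.1, 73.1 and 72.3 CPM in WT 1 to 5. The quasi-likelihood test of edgeR put the log2 fold change at -1.86 (SE 0.14, adjusted p = 3.53e-07). The design names mice of both sexes, but the Y-linked gene Ddx3y was present in all libraries, at 55.4 to 60.9 CPM in OGT-deficient and 77.2 to 91.1 CPM in WT liver, and Xist did not exceed 1.13 CPM. The scaling factors were 1.09 to 1.22 in the OGT-deficient libraries and 0.880 to 0.915 in the WT libraries. With library totals alone, the median log2 fold change of all tested genes was 0.36 in place of 0.02. The members' median minus that of all genes was -0.50 on either scale. Levels are given on the scaled libraries.

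Most of the liver-made plasma factors were lower in OGT-deficient liver. The genes that rose were the lectin gene Mbl2, the plasminogen activators Plat and Plau, the receptors Plaur and Thbd, and the factor XIII chain F13a1. Of the 46 tested members, 30 fell and 6 rose, and 10 did not pass the threshold of an adjusted p of 0.05. That is 36 of 46 called in either direction, beside 61.1% of all tested genes. Among all 14104 tested genes, 29.4% fell and 31.6% rose, against 65.2% and 13.04% of the members. The median log2 fold change of the members was -0.48, beside 0.02 for all tested genes. Every OGT-deficient library lay below every WT library for 28 members (60.9% of those tested, against 25.0% of all genes), and above for 4 (26.2% of all genes). A fall of at least 2-fold was called for 6 members, F11, Klkb1, C2, Masp2, Plg and Hc (6.80% of all genes), and a rise of at least 2-fold for Plat, Plaur and F13a1 (14.8% of all genes).

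All 30 falls were among the members that hepatocytes usually make. Of these 37 members, 30 fell (81.1%, against 29.4% of all tested genes), Mbl2 rose and 6 did not pass. Their median log2 fold change was -0.58. Of the 9 tested members usually made by other cells, none fell, 5 rose (55.6%, against 31.6% of all tested genes) and 4 did not pass. Their median was 0.72. Among these rises, that of F13a1 lost its call with limma voom and with the replicate number as a block. At an unadjusted p under 0.05 the count of falls among these 9 was also 0, as it was with DESeq2 and with limma voom.

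**Figure D1:**
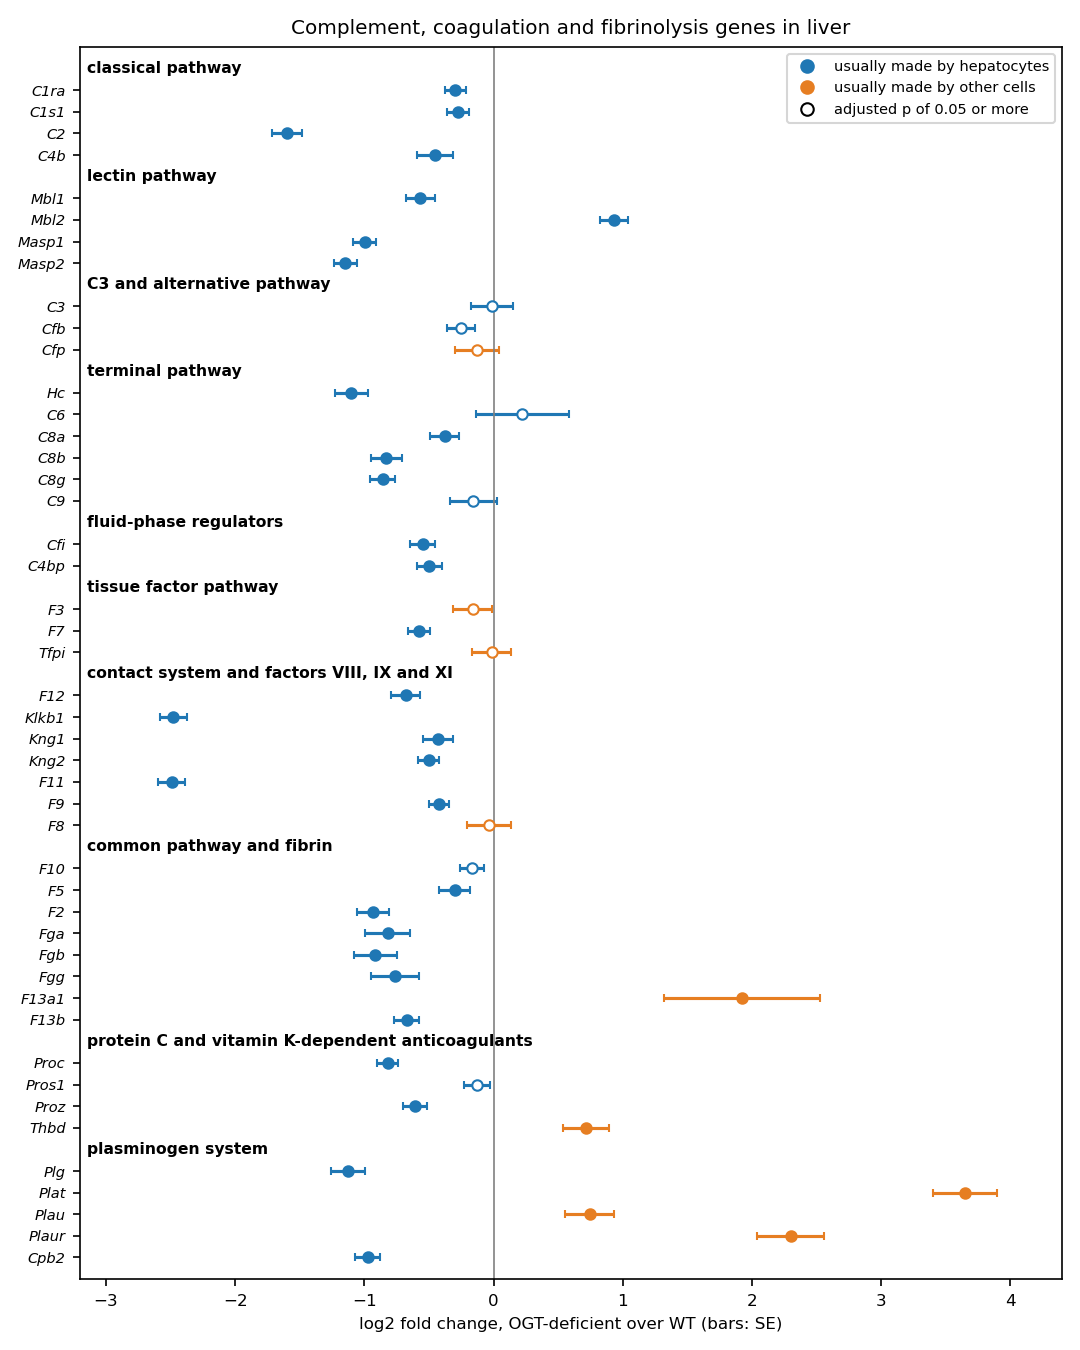
Log2 fold change of OGT-deficient over WT liver (x axis, bars are the SE) for the 46 tested members, grouped by arm. Open points did not pass an adjusted p of 0.05. The points of hepatocyte-made members lie mostly left of 0, with Mbl2 at 0.93 on the right, and the 5 filled points of other cells lie on the right, up to 3.65 for Plat, with their 4 open points between -0.16 and -0.02.

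Markers of several cell types, though not of all, also shifted, and whole tissue cannot tell fewer cells of a type from less RNA per cell. For comparison, 29.4% of all tested genes fell and 31.6% rose. Hepatocyte markers summed to 64460 to 81830 CPM in OGT-deficient liver and 130400 to 153000 CPM in WT liver. Of the 18, 13 fell (72.2%) and 5 did not pass. Their median log2 fold change was -0.59, beside -0.58 for the members that hepatocytes usually make. Steep falls among these markers were those of Cyp2e1 (-2.37) and Hpd (-1.30). Cholangiocyte markers summed to 172 to 307 CPM against 50.1 to 80.3 CPM in WT, with 10 of 11 up and 1 down. Stellate cell and myofibroblast markers rose in 11 of 12 cases, at 1018 to 1389 CPM against 238 to 501 CPM in WT. Recruited macrophage markers rose in 10 of 12, at 321 to 433 CPM against 115 to 150 CPM in WT. Of 10 Kupffer cell markers, 3 rose and 1 fell (30% and 10%), at 571 to 962 CPM against 578 to 837 CPM in WT. These shares did not exceed those of all genes. Of 7 tested T and NK cell markers, 0 rose and 0 fell. The part of these shifts in the members' changes was not tested.

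In the classical pathway all 4 members fell, against 29.4% of all tested genes. C2, the protease zymogen of the C3 convertase, fell most. C2 (chromosome 17, 34862604 to 34898265, minus strand, GRCm38) measured 44.8, 61.0, 60.1 and 59.9 CPM in OGT-deficient 1 to 4, against 169, 152, 156, 197 and 182 CPM in WT 1 to 5. Every OGT-deficient value was far below the lowest WT value, and OGT-deficient 1 was the lowest of all. The difference was 3.03-fold, or -1.60 in log2 units (SE 0.12, adjusted p = 2.54e-07). C1ra, the protease that starts the C1 complex, measured 251, 294, 272 and 296 CPM in OGT-deficient liver, against 364, 338, 315, 352 and 340 CPM in WT liver (log2 fold change -0.30, SE 0.08, adjusted p = 0.00689). Its partner protease C1s1 measured 507, 478, 455 and 538 CPM in OGT-deficient liver, against 594, 570, 569, 644 and 620 CPM in WT liver (-0.28, SE 0.08, adjusted p = 0.0116). The groups did not overlap for either gene, but on library totals alone both values were slightly above 0, at 0.04 for C1ra and 0.06 for C1s1. C4b, the mouse C4 gene whose product binds C2, averaged 1462 ± 230 CPM in OGT-deficient liver and 2002 ± 317 CPM in WT liver (SD, n = 4 and 5). Its groups overlapped, with a log2 fold change of -0.45 (adjusted p = 0.0131). These 3 values are uncertain, since 48% of the 50-base stretches of C1ra also occur in C1rb, 24.3% of those of C1s1 in C1s2, and 35.2% of those of C4b in C4a. Alignments to several places entered no gene count, and they were fewer in every OGT-deficient library (7997176 to 9317390) than in any WT library (16167401 to 35276937). Their part in these values was not tested, nor was it for Kng1, Kng2 and Cfhr2, which also share stretches with other genes.

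C2 lies 0.085 kb from Cfb, the gene of factor B, which plays the part of C2 in the alternative pathway and is its paralog. Cfb measured 1071, 1401, 1360 and 1278 CPM in OGT-deficient liver, against 1719, 1568, 1438, 1448 and 1435 CPM in WT liver. The groups did not overlap, yet the log2 fold change of -0.25 (SE 0.10) missed the threshold at an adjusted p of 0.053. It passed with DESeq2's Wald test and with limma voom, and was 0.08 on library totals alone. For each count of Cfb there were 0.0418 to 0.0469 counts of C2 in OGT-deficient libraries and 0.0969 to 0.136 in WT libraries. This ratio was chosen after its values were seen and was not tested. Both genes read from the same strand, and Cfb begins just downstream of the end of C2.

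In the lectin pathway both proteases and the lectin gene Mbl1 fell, and its paralog Mbl2 rose. Masp2, the protease that cuts C4 and C2, measured 89.3, 115, 109 and 111 CPM in OGT-deficient liver, against 220, 232, 251, 231 and 241 CPM in WT liver. The difference was 2.21-fold (log2 fold change -1.15, SE 0.09, adjusted p = 4.94e-07). It is uncertain because 54.9% of the exonic bases of Masp2 lie under the neighbouring gene Tardbp, whose own log2 fold change was -0.01. Masp1, the protease that activates Masp2 in this pathway, measured 61.3, 68.2, 63.8 and 62.9 CPM in OGT-deficient liver, against 135, 112, 135, 140 and 118 CPM in WT liver (log2 fold change -1.0, SE 0.09, adjusted p = 1.09e-06). The counts do not separate the products that Masp1 makes by alternative splicing.

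Mouse liver makes a pair of mannose-binding lectins, MBL-A from Mbl1 and MBL-C from Mbl2. Mbl2 (chromosome 19, 30232942 to 30239687, plus strand) measured 572, 543, 402 and 536 CPM in OGT-deficient liver, against 280, 281, 235, 271 and 275 CPM in WT liver. All 4 OGT-deficient values lay above all WT values, and the difference was 0.93 in log2 units (SE 0.11, adjusted p = 1.06e-05). Mbl1 (chromosome 14, 41151458 to 41159601, plus strand) went the other way, at 115, 155, 150 and 139 CPM in OGT-deficient liver, against 209, 243, 189, 181 and 214 CPM in WT liver (-0.57, SE 0.11, adjusted p = 0.000725). Mbl2 was the single member of hepatocyte origin that rose, and it rose under every scaling tried.

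The promoters of the lectin pair are shown because the genes are paralogs whose transcripts moved apart. Each is the 150 bases that end just before the RefSeq start of the gene (GRCm38.p6), read in the direction of transcription. Capitals mark the longest run of bases the windows share, 13 bases that begin at position -57 in Mbl2 (window chr19:30232778-30232927, plus strand) and at -23 in Mbl1 (chr14:41151306-41151455, plus strand), counted back from the start.
Mbl2: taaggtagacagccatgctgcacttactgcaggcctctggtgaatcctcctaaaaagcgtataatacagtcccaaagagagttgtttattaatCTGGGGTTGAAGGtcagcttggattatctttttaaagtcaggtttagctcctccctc
Mbl1: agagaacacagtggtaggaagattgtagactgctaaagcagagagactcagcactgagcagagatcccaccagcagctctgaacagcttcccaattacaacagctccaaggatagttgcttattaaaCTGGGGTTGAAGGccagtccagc

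At C3, where the pathways meet, no change passed the test. C3 measured 9184, 11211, 10668 and 9207 CPM in OGT-deficient liver, against 13316, 10296, 10504, 9224 and 7423 CPM in WT liver. The OGT-deficient values lay inside the WT range, and the log2 fold change of -0.01 (SE 0.16, adjusted p = 0.953) changed sign under 8 of 18 alternatives. Cfp encodes properdin, which stabilises the alternative convertase and comes from leukocytes. It measured 29.1, 50.1, 36.3 and 31.3 CPM in OGT-deficient liver, against 51.6, 44.4, 38.1, 32.1 and 33.9 CPM in WT liver (log2 fold change -0.13, SE 0.17, adjusted p = 0.531). Cfd, the adipocyte protease that cuts factor B, had 0, 0, 4 and 0 counts in OGT-deficient and 0, 2, 6, 0 and 6 counts in WT libraries. Since 3 counts stand for 0.0571 to 0.104 CPM, a difference in Cfd was not detectable at this depth. Of the 5 adipocyte markers, Lep had no count in any library. Adipoq had 0 to 4 counts per library, and Plin1 and Retn had 0 to 2, so these markers were near 0 in both groups. Cidec, the only one tested, rose, at 41.8 ± 16.6 CPM in OGT-deficient liver and 3.38 ± 0.769 CPM in WT liver. A rise of Cidec without the other markers is not a measure of adipocytes, and its source was not tested.

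In the terminal pathway, Hc and the 3 genes of C8 fell, and C6 and C9 did not pass. Hc, the mouse gene of C5, measured 439, 612, 542 and 546 CPM in OGT-deficient liver, against 1168, 939, 1085, 1363 and 1179 CPM in WT liver. The groups were well apart, by 2.14-fold (log2 fold change -1.10, SE 0.13, adjusted p = 1.00e-05). C6, which binds C5b at the start of the pore, held 180 to 254 CPM in OGT-deficient liver and spread from 66.4 to 312 CPM in WT liver (log2 fold change 0.22, SE 0.36, adjusted p = 0.611). WT 1 and WT 2 were the low C6 values, at 66.4 and 90.1 CPM. C9, which polymerises into the ring of the pore, spread over 372 to 662 CPM in OGT-deficient and 470 to 811 CPM in WT liver (-0.16, adjusted p = 0.477).

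C8 joins a chain from each of its 3 genes. C8g measured 231, 218, 218 and 206 CPM in OGT-deficient liver, against 337, 450, 374, 387 and 429 CPM in WT liver (log2 fold change -0.86, SE 0.10, adjusted p = 8.28e-06). C8b measured 305, 475, 429 and 407 CPM in OGT-deficient liver, against 708, 771, 727, 672 and 711 CPM in WT liver (-0.83, SE 0.12, adjusted p = 6.03e-05). C8a fell less, at 614, 865, 695 and 777 CPM in OGT-deficient liver, against 1031, 837, 905, 1012 and 1014 CPM in WT liver (-0.38, SE 0.11, adjusted p = 0.0107), and its groups overlapped. C8a and C8b are neighbours on chromosome 4, 11.1 kb apart.

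The fluid-phase regulators listed both fell. Cfi, the protease that inactivates C3b and C4b, measured 482, 604, 527 and 553 CPM in OGT-deficient liver, against 873, 840, 780, 720 and 749 CPM in WT liver (log2 fold change -0.55, SE 0.10, adjusted p = 0.000301). C4bp, a cofactor of Cfi for C4b, measured 350, 408, 400 and 451 CPM in OGT-deficient liver, against 533, 626, 556, 519 and 605 CPM in WT liver (-0.50, SE 0.10, adjusted p = 0.000667). For both genes every OGT-deficient value lay below every WT value.

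The tissue factor pathway starts coagulation at a wound. F7, the protease zymogen that tissue factor binds, measured 96.5, 108, 105 and 116 CPM in OGT-deficient liver, against 169, 162, 150, 167 and 143 CPM in WT liver (log2 fold change -0.58, SE 0.08, adjusted p = 7.25e-05). F3, tissue factor itself, measured 5.86, 5.80, 5.85 and 6.41 CPM in OGT-deficient liver, against 7.77, 6.03, 8.61, 5.76 and 5.25 CPM in WT liver. Tfpi, the inhibitor of the complex, measured 11.2, 10.7, 11.2 and 6.83 CPM in OGT-deficient liver, against 9.46, 11.8, 10.3, 8.53 and 10.3 CPM in WT liver. The groups overlapped for both genes, at log2 fold changes of -0.16 (SE 0.15, adjusted p = 0.372) for F3 and -0.02 (SE 0.15, adjusted p = 0.935) for Tfpi.

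The deepest falls of all 46 tested members were in the contact system and factor XI. In this arm 6 of 7 members fell (85.7%, against 29.4% of all tested genes). Klkb1, plasma prekallikrein (chromosome 8, 45266689 to 45294859, minus strand), measured 41.6, 38.8, 36.7 and 40.8 CPM in OGT-deficient liver, against 221, 216, 181, 258 and 224 CPM in WT liver. F11, factor XI (chromosome 8, 45241174 to 45262031, minus strand), measured 22.2, 26.4, 28.0 and 30.7 CPM in OGT-deficient liver, against 136, 143, 153, 166 and 156 CPM in WT liver. For both genes the OGT-deficient libraries formed a tight group far below the lowest WT library. Klkb1 was 5.57-fold lower (log2 fold change -2.48, SE 0.11, adjusted p = 5.36e-09) and F11 5.63-fold lower (-2.49, SE 0.11, adjusted p = 5.46e-09).

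Klkb1 and F11 are paralogs that lie 4.66 kb apart, so they share a neighbourhood as well as an ancestry. For each count of Klkb1 there were 0.533 to 0.764 counts of F11 in OGT-deficient libraries and 0.615 to 0.850 in WT libraries, so the ratio of the pair overlapped between the groups. Cyp4v3, the next listed gene on the same strand and 10.1 kb beyond Klkb1, held 615 CPM in OGT-deficient liver and 621 CPM in WT liver (log2 fold change -0.02, adjusted p = 0.930). Both the ratio and this neighbour were chosen after their values were seen.

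The promoters of this pair are shown because these genes fell most and by nearly equal amounts. Each is the 150 bases before the RefSeq start (GRCm38.p6), read in the direction of transcription, with F11 from chr8:45262032-45262181 and Klkb1 from chr8:45294836-45294985, both minus strand. Capitals mark a match to the C/EBP motif TTGCNNAA on either strand, found here in F11 at position -17 but not in these letters of Klkb1.
F11: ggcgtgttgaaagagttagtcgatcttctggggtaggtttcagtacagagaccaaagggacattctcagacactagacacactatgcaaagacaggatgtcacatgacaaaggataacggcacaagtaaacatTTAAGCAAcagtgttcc
Klkb1: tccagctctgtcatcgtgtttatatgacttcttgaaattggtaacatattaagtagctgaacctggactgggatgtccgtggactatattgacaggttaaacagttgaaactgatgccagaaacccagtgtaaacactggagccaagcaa

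The other contact factors fell less. F12, the factor XII zymogen that contact with a surface activates, held 437 to 595 CPM in OGT-deficient liver and 731 to 941 CPM in WT liver (log2 fold change -0.68, SE 0.11, adjusted p = 0.000205). Kng1, kininogen, the source of bradykinin, measured 1227, 1737, 1351 and 1580 CPM in OGT-deficient liver, against 2026, 2196, 1825, 1930 and 1959 CPM in WT liver (-0.43, SE 0.12, adjusted p = 0.00578). Its paralog Kng2 measured 175, 187, 169 and 193 CPM in OGT-deficient liver, against 263, 277, 234, 263 and 245 CPM in WT liver (-0.50, SE 0.08, adjusted p = 0.000154). The kininogens share 18.0% of the stretches of Kng1 and 18.2% of those of Kng2 with another listed gene, so the split between them is uncertain. F9, factor IX, held 150 to 168 CPM in OGT-deficient liver and 198 to 231 CPM in WT liver (-0.42, SE 0.08, adjusted p = 0.000562). F8, its cofactor, made by endothelium, held 12.97 to 27.7 CPM in OGT-deficient liver and 20.4 to 25.7 CPM in WT liver (-0.04, adjusted p = 0.870). Of 10 endothelial markers, 1 rose and 4 fell (10% and 40%, against 31.6% and 29.4% of all tested genes). These markers summed to 294 to 538 CPM in OGT-deficient and 470 to 645 CPM in WT liver. Their part in F8, Tfpi and Thbd was not tested.

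In the common pathway, prothrombin and all 3 fibrinogen chains fell. F2, prothrombin, measured 1021, 1430, 1246 and 1459 CPM in OGT-deficient liver, against 2636, 2740, 2381, 2285 and 2280 CPM in WT liver. The groups stood far apart, by 1.91-fold (log2 fold change -0.94, SE 0.12, adjusted p = 3.18e-05). F10, the protease that cuts prothrombin, measured 461, 540, 466 and 528 CPM in OGT-deficient liver, against 613, 609, 532, 509 and 539 CPM in WT liver (-0.17, SE 0.09, adjusted p = 0.132), and its groups overlapped. F5, its cofactor, held 553 to 717 CPM in OGT-deficient liver and 643 to 906 CPM in WT liver. Its log2 fold change of -0.30 (SE 0.12, adjusted p = 0.0484) lost the call under 9 of 18 alternatives and was 0.03 on library totals alone.

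F10 lies between F7 and Proz on chromosome 8, 1.5 kb from F7 and 4.24 kb from Proz, and both flanking genes fell. For each count of F10 there were 0.200 to 0.225 counts of F7 in OGT-deficient libraries and 0.265 to 0.329 in WT libraries. For Proz these ratios were 0.539 to 0.613 in OGT-deficient libraries and 0.742 to 0.857 in WT libraries. The groups did not overlap for either ratio. Both were chosen after their values were seen and were not tested.

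Fibrinogen is built from equal numbers of an alpha, a beta and a gamma chain, whose genes form a cluster on chromosome 3. Fga measured 2216, 3814, 3136 and 2596 CPM in OGT-deficient liver, against 6642, 5526, 5096, 4350 and 4355 CPM in WT liver (log2 fold change -0.82, SE 0.18, adjusted p = 0.00136). Fgb measured 2054, 3182, 2811 and 2254 CPM in OGT-deficient liver, against 6142, 5272, 4679, 4253 and 3930 CPM in WT liver (-0.91, SE 0.16, adjusted p = 0.000388). Fgg measured 1794, 3231, 2770 and 2260 CPM in OGT-deficient liver, against 5209, 5079, 4222, 3445 and 3357 CPM in WT liver (-0.76, SE 0.19, adjusted p = 0.00362). The chains ranked the OGT-deficient libraries alike, with OGT-deficient 2 the highest and OGT-deficient 1 the lowest for each of the 3. All OGT-deficient values lay below all WT values for each chain.

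The promoters of the cluster are shown because the 3 genes moved together. Each is the 150 bases before the RefSeq start (GRCm38.p6), read in the direction of transcription, with Fga from chr3:83026003-83026152 (plus strand), Fgb from chr3:83049864-83050013 (minus strand) and Fgg from chr3:83007574-83007723 (plus strand). Capitals mark matches on either strand to TTGCNNAA, the C/EBP motif, which begin at -135 in Fga and at -80 in Fgb. These letters do not occur in the Fgg window.
Fga: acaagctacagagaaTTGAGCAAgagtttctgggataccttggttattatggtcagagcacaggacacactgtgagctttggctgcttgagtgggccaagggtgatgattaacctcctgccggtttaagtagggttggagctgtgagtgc
Fgb: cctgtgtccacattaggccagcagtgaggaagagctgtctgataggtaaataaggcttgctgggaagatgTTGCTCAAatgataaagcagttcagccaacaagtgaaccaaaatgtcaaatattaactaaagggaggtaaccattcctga
Fgg: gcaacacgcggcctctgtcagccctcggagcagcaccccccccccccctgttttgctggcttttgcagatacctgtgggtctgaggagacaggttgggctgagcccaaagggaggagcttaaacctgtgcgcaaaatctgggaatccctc

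RefSeq promoters were found for 36 of the 48 listed symbols, as 40 starts. Within the 250 bases before the start, TTGCNNAA or its reverse TTNNGCAA occurred in 10 of the 40 (25.0%) and in 9.56% of all 32851 promoters searched the same way. Besides F11, Fga and Fgb, the letters occurred in the 150-base windows of Kng2 and F9, which fell. They also occurred in those of C3 and C9, which did not pass, and of Plaur, which rose. These are occurrences of letters, and no link to the fold changes was tested.

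Factor XIII, which cross-links fibrin, pairs a catalytic chain made by blood and marrow-derived cells with a carrier chain made by the liver. F13b, the carrier, measured 164, 201, 181 and 197 CPM in OGT-deficient liver, against 283, 331, 252, 302 and 311 CPM in WT liver (log2 fold change -0.67, SE 0.10, adjusted p = 7.58e-05). F13a1, the catalytic chain, had 55, 18, 62 and 3 counts in OGT-deficient libraries, which is 1.16, 0.454, 1.18 and 0.0734 CPM, against 8, 14, 6, 6 and 3 counts in WT libraries, which is 0.171, 0.294, 0.168, 0.208 and 0.0894 CPM. OGT-deficient 4 was below all WT libraries. The log2 fold change of 1.93 (SE 0.60, adjusted p = 0.0145) missed the threshold with limma voom (adjusted p = 0.129). F13a1 did not pass the low-count filter under 6 of 18 alternatives, among them those without OGT-deficient 1 or 3, and so had no call there. Platelet and megakaryocyte markers summed to 5.29 to 7.10 CPM in OGT-deficient and 4.59 to 7.33 CPM in WT liver. Of 4 tested, Pf4 rose and Gp1ba fell (25% each way, against 31.6% and 29.4% of all tested genes). The part of these markers in F13a1 was not tested.

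**Figure D2:**
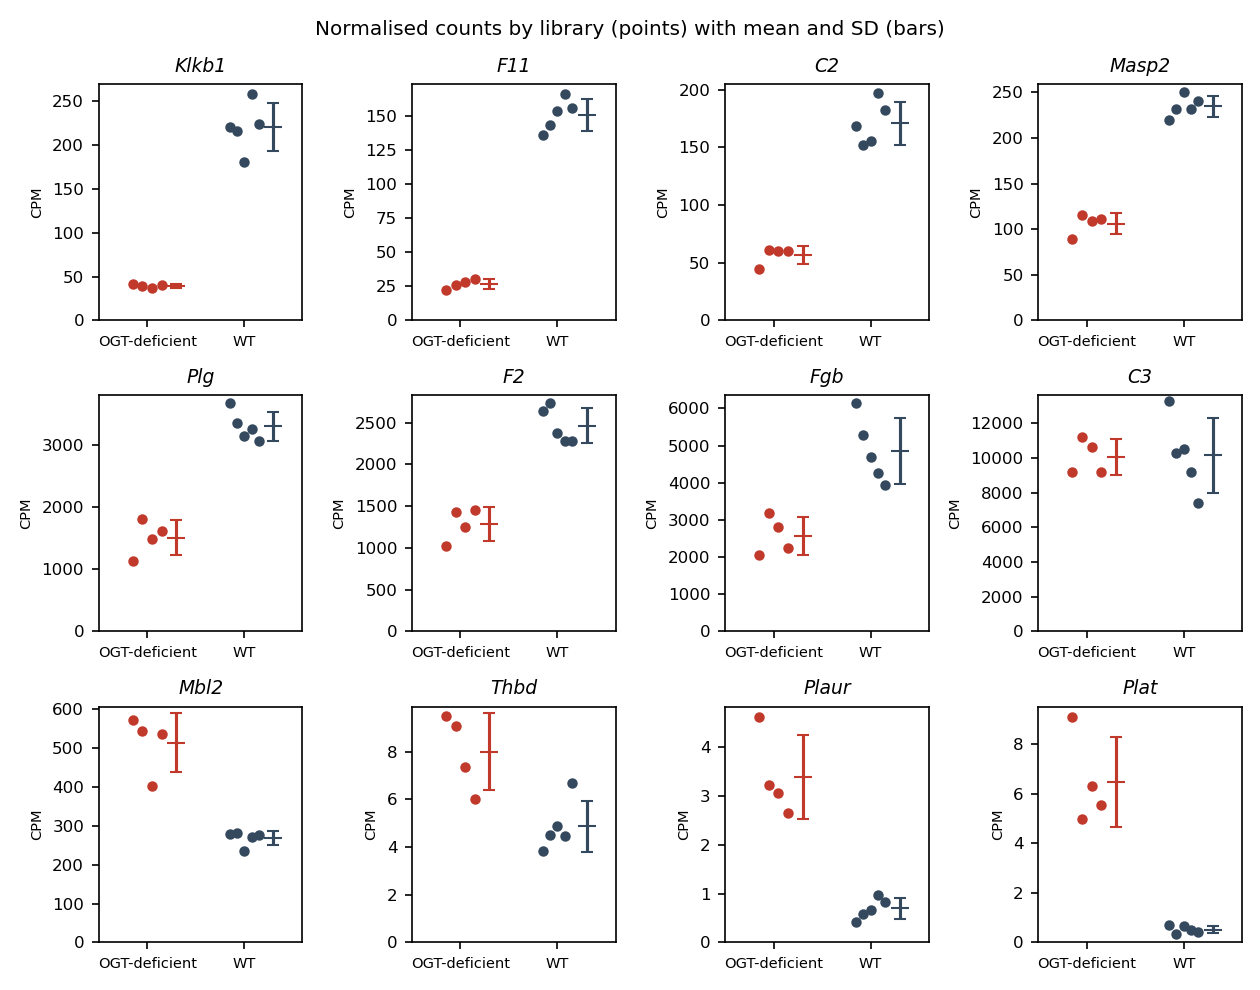
Normalised counts (CPM, y axes from 0) of 12 members in each OGT-deficient library (left, n = 4) and each WT library (right, n = 5), with the mean and SD beside the points. The groups are apart for Klkb1, F11, C2, Masp2, Plg, F2, Fgb, Mbl2, Plaur and Plat, and overlap for C3 and Thbd.

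In the anticoagulant arm, protein C and protein Z fell and thrombomodulin rose. Proc, protein C, the vitamin K-dependent protease that inactivates factors V and VIII, measured 329, 369, 339 and 388 CPM in OGT-deficient liver, against 646, 629, 599, 663 and 609 CPM in WT liver (log2 fold change -0.82, SE 0.08, adjusted p = 3.54e-06). Proz, a cofactor in the inhibition of factor X, measured 248, 331, 274 and 313 CPM in OGT-deficient liver, against 462, 452, 454, 436 and 419 CPM in WT liver (-0.61, SE 0.09, adjusted p = 0.000127). Thbd, thrombomodulin, the endothelial receptor on which thrombin activates protein C, measured 9.50, 9.10, 7.35 and 6.02 CPM in OGT-deficient liver, against 3.84, 4.49, 4.88, 4.47 and 6.67 CPM in WT liver. Its log2 fold change was 0.72 (SE 0.18, adjusted p = 0.00381), with WT 5 above OGT-deficient 4. Pros1, protein S, the cofactor of protein C, held 69.5 to 86.7 CPM in OGT-deficient liver and 73.7 to 101 CPM in WT liver (-0.13, adjusted p = 0.288).

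All 5 members of the plasminogen system were called, against 61.1% of all tested genes in either direction. The plasma proteins fell, and the activators and the receptor rose. Plg, plasminogen (chromosome 17, 12378608 to 12419385, plus strand), measured 1123, 1798, 1491 and 1615 CPM in OGT-deficient liver, against 3661, 3353, 3140, 3254 and 3056 CPM in WT liver. This was 2.19-fold lower (log2 fold change -1.13, SE 0.13, adjusted p = 1.40e-05), with 13.8% of the stretches of Plg shared with the overlapping gene Slc22a3. Cpb2, the carboxypeptidase that shields fibrin from plasmin, measured 147, 192, 162 and 183 CPM in OGT-deficient liver, against 339, 372, 316, 313 and 341 CPM in WT liver (-0.98, SE 0.10, adjusted p = 3.16e-06). Neither gene had an OGT-deficient value that reached the lowest WT value.

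Plat, tissue plasminogen activator (chromosome 8, 22757727 to 22782844, plus strand), measured 9.08, 4.96, 6.31 and 5.55 CPM in OGT-deficient liver, against 0.683, 0.336, 0.645, 0.485 and 0.417 CPM in WT liver. The lowest OGT-deficient library exceeded the highest WT library several times over, on 197 to 431 counts in OGT-deficient and 14 to 32 counts in WT libraries. Plat was 12.5-fold higher, or 3.65 in log2 units (SE 0.25, adjusted p = 1.74e-07), the largest rise among the members. Plaur, the receptor of urokinase (chromosome 7, 24462484 to 24475968, plus strand), measured 4.61, 3.23, 3.05 and 2.64 CPM in OGT-deficient liver, against 0.427, 0.588, 0.673, 0.971 and 0.834 CPM in WT liver (log2 fold change 2.30, SE 0.26, adjusted p = 8.64e-06). Plau, urokinase itself, measured 5.31, 4.18, 3.89 and 3.50 CPM in OGT-deficient liver, against 2.67, 1.74, 2.52, 3.05 and 2.68 CPM in WT liver (0.74, SE 0.19, adjusted p = 0.00406). For all 3 genes every OGT-deficient value lay above every WT value, and the share of the recruited macrophage, stellate and cholangiocyte markers given above in these rises was not tested.

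Ratios of 12 pairs of partner or paralogous genes were compared inside each library, where scaling has no part. For each count of Mbl1 there were 4.98, 3.50, 2.67 and 3.87 counts of Mbl2 in OGT-deficient libraries, against 1.34, 1.16, 1.24, 1.499 and 1.29 in WT libraries. For each count of C8b there were 2.01, 1.82, 1.62 and 1.91 counts of C8a in OGT-deficient libraries, against 1.46, 1.09, 1.24, 1.51 and 1.43 in WT libraries. The ratio of Plau to Plg was 0.00218 to 0.00474 in OGT-deficient and 0.000523 to 0.000943 in WT libraries. These 3 ratios were higher in every OGT-deficient library than in any WT library, each with a two-sided exact permutation p of 0.0159, the smallest that 4 against 5 libraries allow. For Mbl2 with Mbl1 and for Plau with Plg this outcome was fixed by the separation of each gene given above. For these pairs the test therefore adds nothing to the values of the single genes. The pairs were chosen with earlier results of these data known. After adjustment over the 12 pairs, p was 0.0635 for each in this exact permutation test, so no pair passed the threshold. Because of the lower limit of p, a single separated pair could not have passed on its own, however large its difference. Of the 12 pairs, 4 had an unadjusted p under 0.05.

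The other 9 ratios overlapped between the groups. Fga to Fgb ran from 1.08 to 1.20 in OGT-deficient and from 1.02 to 1.11 in WT libraries. Fgg to Fgb ran from 0.873 to 1.01 in OGT-deficient and from 0.810 to 0.963 in WT libraries, so the fibrinogen chains stayed within a narrow band in both groups. C1ra to C1s1 ran from 0.494 to 0.615 in OGT-deficient and from 0.546 to 0.614 in WT libraries, and Masp2 to Masp1 from 1.46 to 1.77 in OGT-deficient and from 1.63 to 2.07 in WT libraries. A ratio inside a library shows unequal or similar change and not which gene moved.

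**Figure D3:**
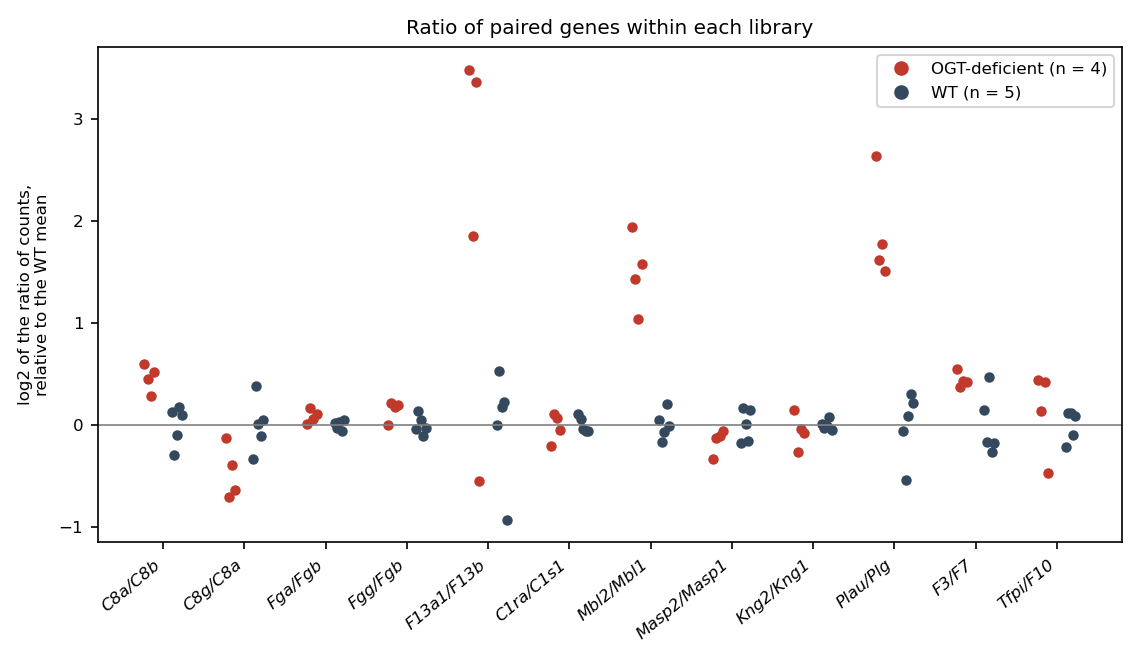
Log2 of the count ratio of 12 gene pairs in each OGT-deficient library (left of each pair, n = 4) and each WT library (right, n = 5), shown relative to the WT mean at 0. Mbl2/Mbl1, Plau/Plg and C8a/C8b are above WT in all OGT-deficient libraries, while Fga/Fgb, Fgg/Fgb, C1ra/C1s1 and Kng2/Kng1 stay near 0.

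Levels per exon length put the members on a rough common scale. The length counts every annotated exon of a gene, so the order depends on the annotation. On the scale of CPM per kb of exon, C3 held 1957 in OGT-deficient liver and 1974 in WT liver. Fgg, with the highest mean in WT liver by a narrow margin over C3, held 1201 in OGT-deficient liver and 2037 in WT liver. C3 had the highest mean on this scale in OGT-deficient liver. Mbl2, at 471 CPM per kb in OGT-deficient and 247 in WT liver, ranked number 5 of 47 in OGT-deficient liver and number 16 in WT liver. Plg, at 406 CPM per kb in OGT-deficient and 887 in WT liver, ranked number 8 and number 5 in those groups. Apart from Cfp, the members usually made by other cells stayed at the bottom of the order, with Plat at 1.04 CPM per kb in OGT-deficient and 0.0823 in WT liver. The order of neighbours was not tested.

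**Figure D4:**
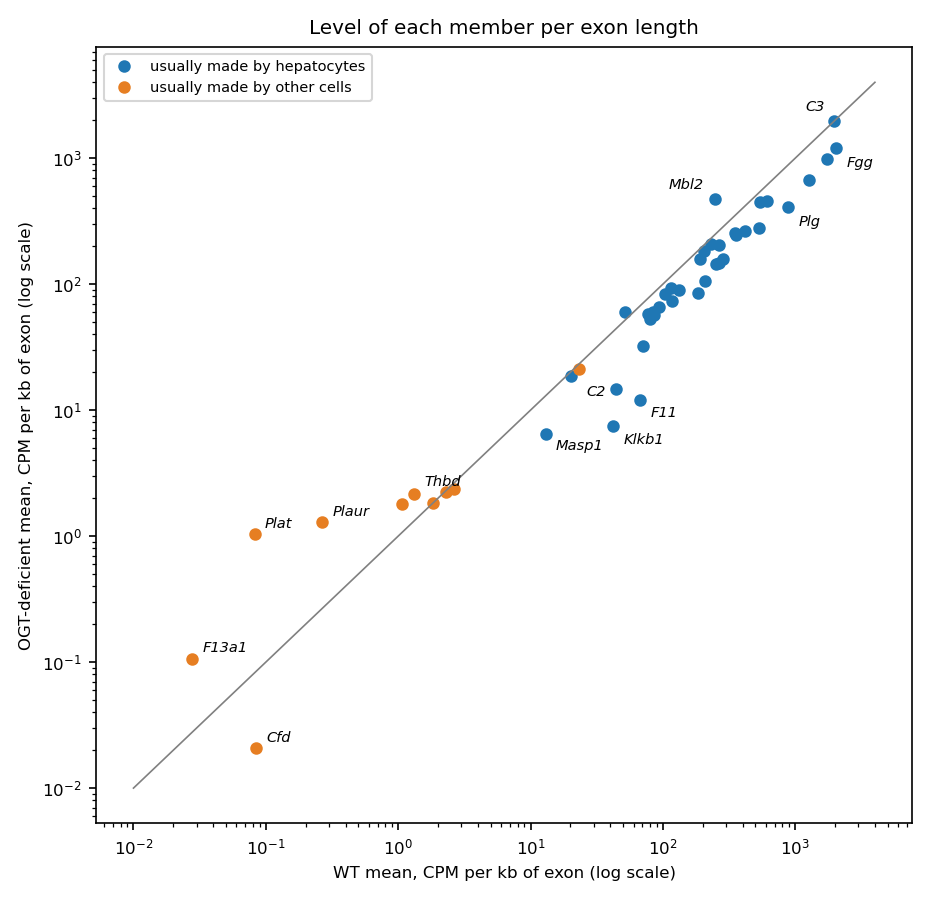
Mean level of each of the 47 members in OGT-deficient liver (y axis) against WT liver (x axis), in CPM per kb of exon on log scales, with the line of equality. Members made by hepatocytes fill the upper range and lie mostly below the line, with C3 on it and Mbl2 above it, and Plat and Plaur stand above it at the low end.

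Other genes of these cascades moved in both directions, as all tested genes did. Of 23 tested complement genes outside the members, 10 rose and 7 fell (43.5% and 30.4%, against 31.6% and 29.4% of all genes). Cr2, complement receptor 2 of B cells, held 1.87 ± 0.388 CPM in OGT-deficient liver and 0.342 ± 0.108 CPM in WT liver (SD, n = 4 and 5), a log2 fold change of 2.46. C5ar1, the receptor of C5a on myeloid cells, rose by 1.63, to 3.35 ± 0.703 CPM in OGT-deficient liver, against 1.08 ± 0.273 CPM in WT liver. Cr1l, a membrane regulator of C3 convertases, had a log2 fold change of -0.85 and fell, as did the factor H-related gene Cfhr2 (-0.83), which is uncertain because 28.7% of its 50-base stretches occur in another listed gene.

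Of 22 tested coagulation genes outside the members, 6 rose and 8 fell (27.3% and 36.4%), shares near those of all genes. F2rl1, the protease-activated receptor PAR2, held 6.14 ± 1.996 CPM in OGT-deficient liver and 0.179 ± 0.105 CPM in WT liver, a log2 fold change of 5.00 (SE 0.38). Anxa2, part of a cell-surface receptor for plasminogen and tissue plasminogen activator, rose by 2.21, at 49.4 ± 10.8 CPM in OGT-deficient liver and 10.7 ± 2.0 CPM in WT liver. F2r, the thrombin receptor PAR1, rose by 0.90, and Hgfac, a plasma protease activator of hepatocyte growth factor, fell by 1.15. Of the 7 serpin regulators, 4 fell (57.1%, against 29.4% of all tested genes). These were antithrombin (Serpinc1, -1.12), heparin cofactor II (Serpind1, -1.07), antiplasmin (Serpinf2, -1.25) and the C1 inhibitor (Serping1, -0.75). The value of Serpinc1 is uncertain, since 34.4% of its exonic bases lie under Zbtb37 and 58.8% of its stretches are shared with it. Serpina5, the protein C inhibitor, rose, at 0.663 ± 0.291 CPM in OGT-deficient liver and 0.0925 ± 0.0912 CPM in WT liver, and Serpina10 did not pass.

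Transcription factors and cytokine receptors that textbooks name for these genes fell or did not pass. Of 19 tested, 13 fell (68.4%, against 29.4% of all tested genes), 0 rose (against 31.6%) and 6 did not pass. Those named among the falls are Ppara (log2 fold change -0.83), Nr5a2 (-0.78) and the interleukin 6 receptor Il6ra (-1.0). Ppara held 228 ± 14.8 CPM in OGT-deficient liver and 405 ± 36.2 CPM in WT liver. These are levels of transcripts, measured in the same libraries as the members.

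**Figure D5:**
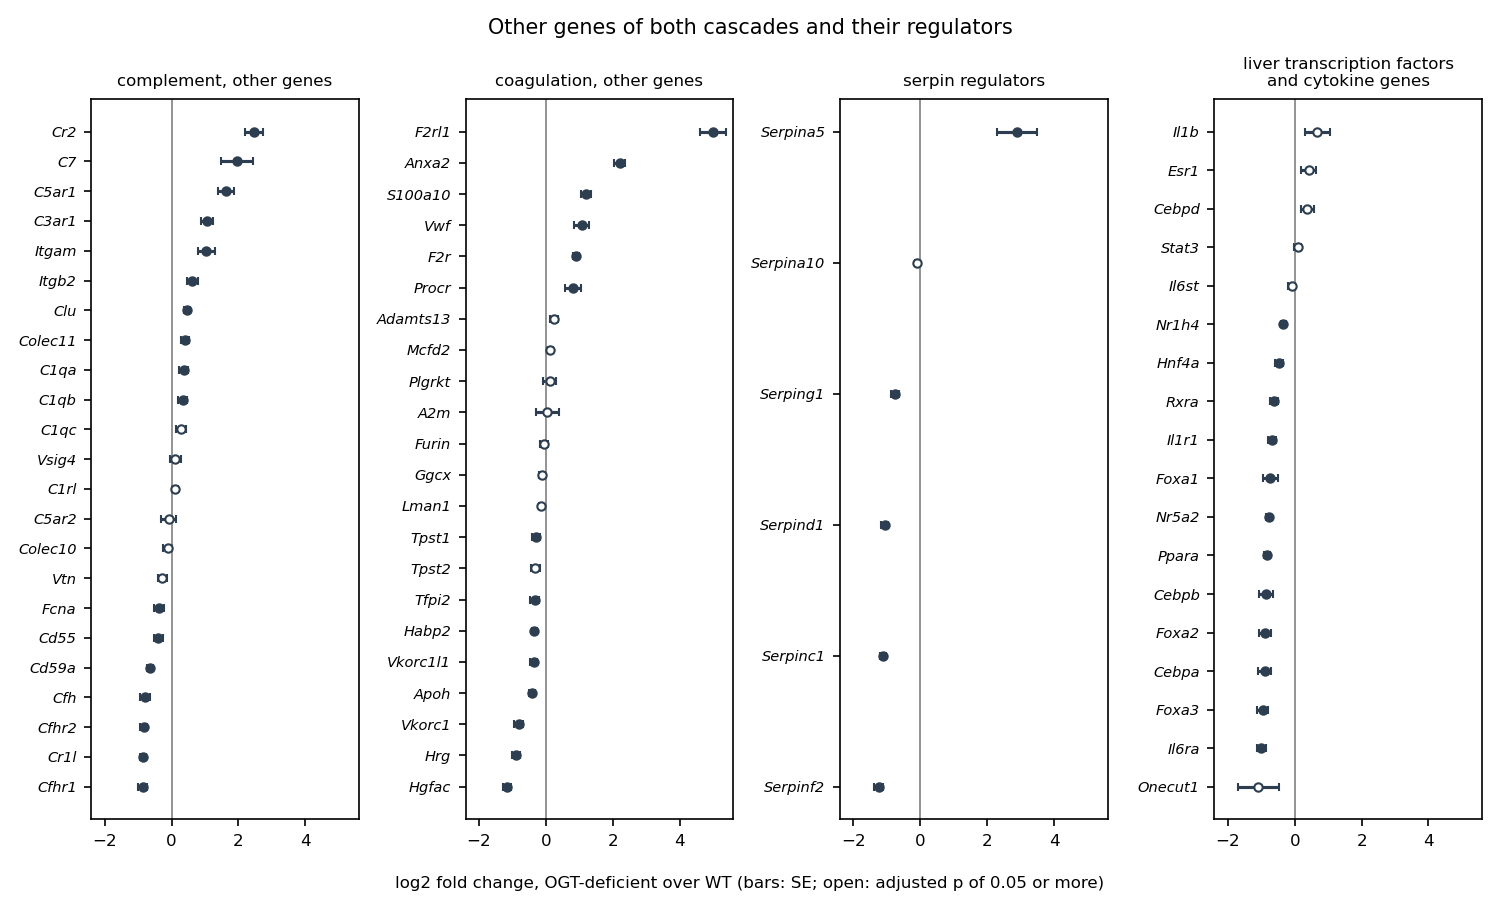
Log2 fold change of OGT-deficient over WT liver (x axes, bars are the SE) for tested genes of 4 accompanying lists. Open points did not pass an adjusted p of 0.05. Receptors such as F2rl1 (5.00), Cr2 (2.46) and Anxa2 (2.21) lie to the right, and 4 serpins and most of the transcription factor genes lie to the left.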

How the data were processed

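Total RNA of whole liver was sequenced in 9 libraries, 4 OGT-deficient and 5 WT. Alignment and counting tools listed in the submitters' processing notes are TopHat2 2.1.0 and HTSeq 0.9.1, and the build is mm10 (GRCm38). The authors deposited, for each library, a whole-number read count per gene symbol without normalization. The sources used here name no annotation release or strand setting, so reads of genes that overlap on opposite strands cannot be told apart. The summary lines at the end of each table (reads outside genes were 9.96 to 10.7% of uniquely aligned reads in OGT-deficient and 8.95 to 9.72% in WT libraries, and reads over several genes 1.78 to 2.17% in all) and the alignments to several places stayed out of library sizes and tests.

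Counts were tested in R 4.3.3 with edgeR 4.0.16 (filterByExpr, trimmed mean of M-values (TMM) scaling, quasi-likelihood F test on group, Benjamini-Hochberg over 14104 genes, threshold 0.05). SEs follow from the F statistic. CPM uses the scaled library sizes, in which 3 counts are 0.0571 to 0.104 CPM. The level of 3 counts allows for counting error only, and the SDs given with CPM are over the libraries of a group. Alternatives were DESeq2 1.42.0, limma 3.58.1 voom, other scalings and filters, a replicate block and each library left out. Ratios used counts plus 0.5 and exact permutation tests (scipy 1.17.1). Chi-square per degree of freedom between libraries of a group was 23.9 to 135.0 over 16 pairs, so none was a duplicate. The procedure was tested on simulated data. Coordinates and exon lengths are those of GENCODE's mouse annotation (GRCm38), matched by symbol, and promoters those of RefSeq (GRCm38.p6). Shared sequence was counted in stretches of 50 bases. Figures were drawn with matplotlib 3.10.9.

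The members, lists and pairs were chosen with earlier results of these data known. All members may be named. Library values are given for the 2 members of each arm with the smallest p, those that rose, the pairs, C3, F2 and Plg, and up to 4 genes of each accompanying list are named by smallest p. A few others, such as Serpina5, were named after their values were seen. A few genes under this naming rule are not reported here.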

Additional observations from a re-analysis of the deposited data

Results flagged for a closer look

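In 5 of 94 groups of library values, a single library stood apart from the others of its group by Dixon's test, which chance alone does in about 1 of 20 groups. C2 measured 44.8 CPM in OGT-deficient 1, against 59.9 to 61.0 CPM in the other OGT-deficient libraries, and all 4 were below WT. Mbl2 measured 235.0 CPM in WT 3, against 271 to 281 CPM in the other WT libraries. Cfd measured 0.0762 CPM in OGT-deficient 3 and 0 in the other OGT-deficient libraries, a difference of 4 counts. F3 measured 6.41 CPM in OGT-deficient 4, against 5.80 to 5.86 CPM in the other OGT-deficient libraries. Tfpi measured 6.83 CPM in OGT-deficient 4, against 10.7 to 11.2 CPM in the other OGT-deficient libraries.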

How the results depend on the processing

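Of the 46 tested members, 26 kept direction and call under all 18 alternatives. The same 20 genes fell and the same 5 (Mbl2, Plat, Plau, Plaur and Thbd) rose under each of them, and 27 fell under all but library totals alone. Members that fell numbered 27 to 31 under the other alternatives, 28 to 31 with a library left out. Scaling moved most. Library totals alone, chosen after the scaling factors were seen, gave 7370 higher and 2017 lower genes (78.5% of calls higher, against 51.8% with TMM), a members' median of -0.14 and 20 members that fell. Upper-quartile factors gave a members' median of -0.36, 5435 higher and 3259 lower genes (62.5% higher) and a median of all genes of 0.14. On library totals alone the sign turned to 0.0379 for C1ra, 0.062 for C1s1, 0.33 for C3, 0.0828 for Cfb, 0.20 for Cfp, 0.17 for C9, 0.17 for F3, 0.33 for Tfpi, 0.31 for F8, 0.17 for F10, 0.0309 for F5 and 0.21 for Pros1. Values near 0 changed sign elsewhere too. C3 was 0.11 with upper-quartile factors, 0.0171 with a filter of CPM 1 in 4 libraries, 0.0132 with limma voom and -0.106 to 0.105 with a library left out. Tfpi was 0.11 with upper-quartile factors, 0.0142 with the CPM filter, and -0.0931 to 0.105 with a library left out. F8 was 0.0869 with upper-quartile factors, and -0.171 to 0.126 with a library left out. With a library left out, the group difference in the C1ra/C1s1 ratio was -0.0644 to 0.0407 and that in the Kng2/Kng1 ratio -0.129 to 0.00656, in log2 units. The cause was not tested.

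With the replicate number as a block, 29 members fell and 5 rose, with 4109 genes higher and 3760 lower. The F13a1 log2 fold change lost its call (adjusted p = 0.0717), as did F5. F13a1 was not tested under 6 alternatives, the CPM filter and those without OGT-deficient 1 or 3 or WT 1, 2 or 3. Same-numbered libraries did not deviate together (r = 0.0525, -0.103, 0.022 and 0.104), and 1 of the 4 numbers was its own best partner, so the numbers were not taken to pair the mice. No member moved by more than 1.5-fold under any alternative. Depth limits Cfd and F13a1.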
